A study of Mus musculus with 4 samples.

Results

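The 10 genes described here are grouped as matrix genes of tendon and of the junction where muscle fibers are anchored in it: Tnmd, Scx, Mkx, Comp, Fmod, Thbs4, Postn, Lox, Tnc and Dcn. That each of them is particular to tendon was not tested. They were chosen by symbol, as every row of the deposited soleus table that bears one of these names, and all 10 were found among the 23420 genes of that table. All 10 also averaged 10 normalized counts or more over the 4 libraries and were therefore among the 13287 genes tested. A normalized count is the number of reads assigned to a gene divided by a size factor that sets the libraries to a common depth. The libraries were made from RNA of the soleus, a hind limb muscle rich in slow fibers, of 2 muHuR-KO mice (muHuR-KO-1.9 and muHuR-KO-3.9) and 2 control littermates (Control-3.8 and Control-3.12). muHuR-KO mice are written as MyoDCre+;LoxP-/- and controls as MyoDCre-;LoxP-/- in the labels, all of them C57BL/6 and 10 weeks old. According to the methods of the study, the mice of both groups carried floxed alleles of Elavl1, the gene for the RNA-binding protein HuR, so that the groups differed by the Cre recombinase. This Cre was driven by MyoD, a gene of muscle progenitors, from embryonic life onwards, whereas the tenocytes and fibroblasts that make most tendon matrix belong to other lineages. The labels name each mouse but do not give its sex.

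Tendon transmits force through parallel collagen fibrils laid down by tenocytes. The transcription factors scleraxis (Scx) and Mohawk (Mkx) promote the tenocyte program, and tenomodulin (Tnmd) is a membrane protein of differentiated tenocytes. Decorin (Dcn) and fibromodulin (Fmod) bind the fibrils and limit their width, lysyl oxidase (Lox) crosslinks collagen and elastin, and thrombospondin 4 (Thbs4), cartilage oligomeric matrix protein (Comp), tenascin C (Tnc) and periostin (Postn) link fibrils, cells and other matrix proteins, several of them at the myotendinous junction. A dissected muscle carries some tendon and connective sheath with it, and in bulk RNA a change in the number of such cells and a change in the RNA of each cell cannot be told apart.

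Depth and the check of the targeted gene apply to every value that follows. Dividing the normalized counts by their step returned whole reads (100% of values, within 0.01 of a read), and the reads assigned to genes came to 30362871 and 33348893 in muHuR-KO-1.9 and muHuR-KO-3.9, against 25767295 and 13301715 in Control-3.8 and Control-3.12. Elavl1 had 1210 and 1205 normalized counts in muHuR-KO libraries, against 1350 and 1190 in controls, which is a log2 fold change of -0.07 (limma, standard error 0.25, adjusted p = 0.9999). Reads of the floxed part are not separated from the rest of the gene, so this is no check of the genotype. The study itself reported the knockout by genotyping PCR and by western blots of HuR protein, with soleus among the muscles examined. Control-3.8 stood apart from the other libraries: 1696 of 13287 genes differed between it and the mean of the other 3 at an adjusted p under 0.05 from limma, while none did for any other library. Its deviation ran with base composition. Among the 1320 genes with the lowest GC content of their longest transcript (31.0 to 41.4%), the median deviation from the gene's own mean was 0.20 and 0.18 on the log2 scale in muHuR-KO-1.9 and muHuR-KO-3.9, against -0.78 in Control-3.8 and 0.34 in Control-3.12. Results are therefore given with each library singly and with each control.

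Of the transcription factors, Mkx was lowest in Control-3.8 and Scx was highest there. Scx (chromosome 15 of GRCm38, 76457452 to 76459458, plus strand) had 473 and 371 normalized counts in muHuR-KO-1.9 and muHuR-KO-3.9, against 612 in Control-3.8 and 237 in Control-3.12. The controls lay on either side of both muHuR-KO libraries and differed from each other by 2.58-fold, more than any muHuR-KO library differed from a control. Scx lies inside Bop1, a gene of ribosome assembly on the opposite strand, with 0 exonic bases in common. Bop1 had 513 and 644 normalized counts in muHuR-KO libraries, against 877 in Control-3.8 and 513 in Control-3.12, so it too was highest in Control-3.8, and its part in the Scx values was not tested.

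Mkx (chromosome 18, 6934518 to 7004780, minus strand) was the least abundant of the 10 genes and rested on 114 and 93 reads in muHuR-KO libraries, against 28 in Control-3.8 and 39 in Control-3.12. Its normalized counts were 84.5 and 65.9 in muHuR-KO-1.9 and muHuR-KO-3.9, against 27.3 in Control-3.8 and 71.7 in Control-3.12. Only Control-3.8 was set apart, and Control-3.12 lay between the muHuR-KO libraries. Lox (chromosome 18, 52516067 to 52529867, minus strand), the crosslinking enzyme, had 282 and 254 normalized counts in muHuR-KO libraries, against 80.1 in Control-3.8 and 201 in Control-3.12. Here both muHuR-KO libraries lay above both controls. The mean of muHuR-KO libraries was 268 ± 19.2, against 140 ± 85.2 in controls (SD, n = 2 each), so that most of the spread lay between the controls.

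Tnmd, the tenocyte membrane protein, was higher in each muHuR-KO library than in each control. Tnmd (chromosome X, 133850980 to 133865577, plus strand) had 783 and 529 normalized counts in muHuR-KO-1.9 and muHuR-KO-3.9, against 312 in Control-3.8 and 464 in Control-3.12. The step between the lower muHuR-KO library and the higher control was small, 1.14-fold, against 1.48-fold between the muHuR-KO libraries themselves.

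The thrombospondins Thbs4 and Comp also had no overlap between the groups. Thbs4 (chromosome 13, 92751590 to 92794818, minus strand), which is found in tendon and where it meets the muscle fibers, had 7877 and 4694 normalized counts in muHuR-KO libraries, against 4195 in Control-3.8 and 3672 in Control-3.12. Its controls were close, 1.14-fold apart, and muHuR-KO-1.9 stood above the other 3 libraries. Comp (chromosome 8, 70373558 to 70382066, plus strand), which guides the assembly of collagen fibrils, had 263 and 286 normalized counts in muHuR-KO libraries, against 126 in Control-3.8 and 256 in Control-3.12. Here muHuR-KO-1.9 exceeded Control-3.12 by only 1.03-fold, and Comp was the only one of the 10 genes that was highest in muHuR-KO-3.9.

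The small leucine-rich proteoglycans Fmod and Dcn were high in muHuR-KO-1.9 and overlapped between the groups otherwise. Fmod (chromosome 1, 134037254 to 134048277, plus strand) had 5237 and 3099.6 normalized counts in muHuR-KO libraries, against 2282 in Control-3.8 and 4014 in Control-3.12. Dcn (chromosome 10, 97479609 to 97518143, plus strand) had 14920.3 and 7979.7 normalized counts in muHuR-KO libraries, against 7020.1 in Control-3.8 and 8938 in Control-3.12. In both genes muHuR-KO-3.9 lay between the controls, and the 1.69-fold and 1.87-fold gaps between the muHuR-KO libraries were wider than any gap between the groups but that of muHuR-KO-1.9 to Control-3.8.

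The matricellular proteins Postn and Tnc had in common a high value in muHuR-KO-1.9. Postn (chromosome 3, 54361109 to 54391037, plus strand), a periosteal and tendon protein that rises in loaded or injured connective tissue, had 3788 and 1959 normalized counts in muHuR-KO-1.9 and muHuR-KO-3.9, against 658 in Control-3.8 and 1755 in Control-3.12. Its groups did not overlap, and it had the largest ratio of group means of the 10 genes, 2.38 (2873 ± 1293 in muHuR-KO libraries and 1206.5 ± 775 in controls, SD, n = 2 each). Tnc (chromosome 4, 63959785 to 64047015, minus strand), an adhesion-modulating protein of tendon and of the myotendinous junction, had 831 and 316 normalized counts in muHuR-KO libraries, against 359 in Control-3.8 and 322 in Control-3.12. Only muHuR-KO-1.9 was raised, 2.63-fold over muHuR-KO-3.9, which was the lowest of the 4 libraries.

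**Figure D1:**
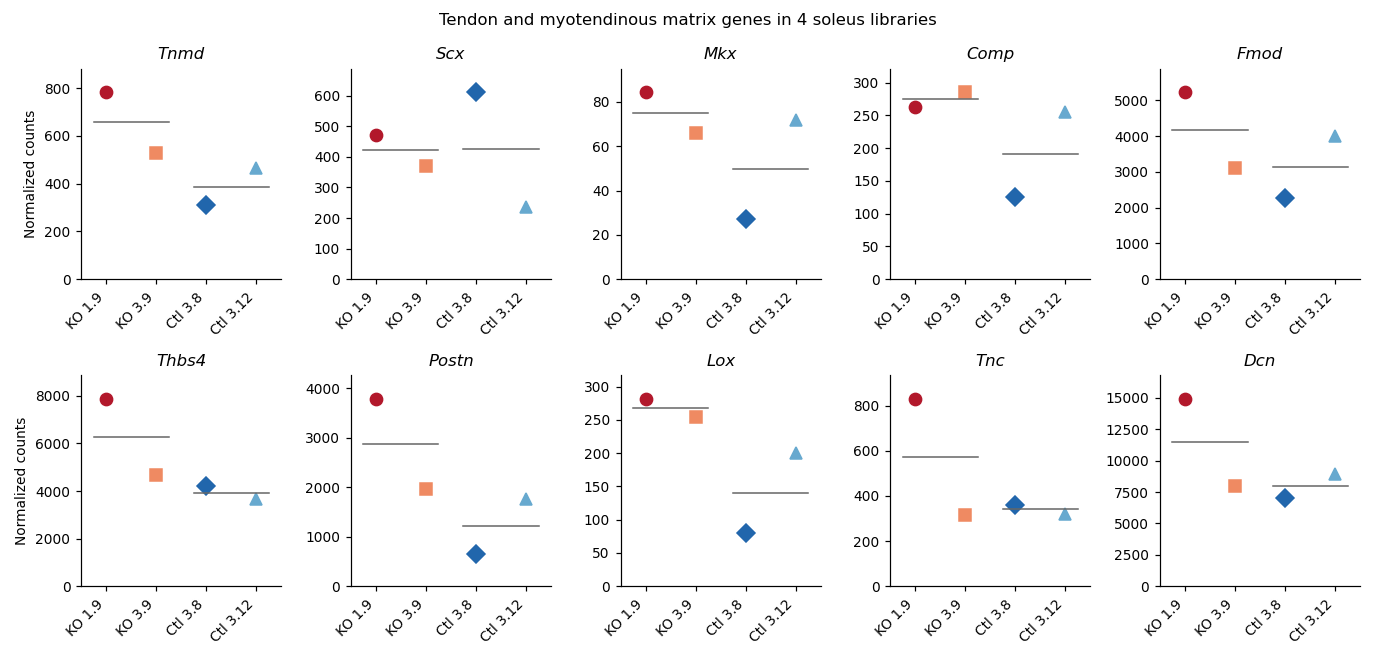
Normalized counts of each of the 10 genes (linear axis from 0) in muHuR-KO-1.9, muHuR-KO-3.9, Control-3.8 and Control-3.12, with a horizontal line at the mean of each group. muHuR-KO-1.9 is the highest point in 8 of the 10 genes and Control-3.8 the lowest in 7.

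The 10 genes were next read library by library. muHuR-KO-1.9 was the highest of the 4 libraries in 8 of 10 genes (all but Scx and Comp), where it was the highest in 21.2% of all tested genes. Control-3.8 was the lowest in 7 of 10 genes (all but Scx, Thbs4 and Tnc), where it was the lowest in 34.9% of all tested genes. Both muHuR-KO libraries lay above both controls in 5 of 10 genes (Tnmd, Comp, Thbs4, Postn and Lox), against 9.57% of all tested genes, and both lay below both controls in 0 of 10, against 13.0%. Summed over the 10 genes, there were 34538 and 19555 normalized counts in muHuR-KO-1.9 and muHuR-KO-3.9, against 15672 in Control-3.8 and 19929 in Control-3.12. By this sum, which Dcn and Thbs4 dominate, muHuR-KO-3.9 and Control-3.12 lay close together, with muHuR-KO-1.9 above and Control-3.8 below them.

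With 1 library left out, the count of genes without overlap depended on which one it was. muHuR-KO-3.9 alone lay above both controls in the same 5 genes (19.3% of all tested genes), whereas muHuR-KO-1.9 alone did so in 9 of 10, all but Scx (25.0%). Both muHuR-KO libraries lay above Control-3.12 in 6 of 10 genes, the 5 named and Scx (28.8%), and above Control-3.8 in 8 of 10, all but Scx and Tnc (38.2%). Leaving 1 library out of these counts was a choice made after seeing the data.

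Levels can be compared between genes only per length, as reads per kilobase of exon after scaling each library to the same depth (RPKM). By the mean of the 4 libraries, Dcn (70.4), Thbs4 (65.8) and Fmod (46.8) led the 10 genes and ranked 505, 534 and 732 among 13199 tested genes with an annotated length. Their ranges over the libraries overlapped one another, for Dcn 114 and 57.8 in muHuR-KO libraries against 47.8 and 62.6 in Control-3.8 and Control-3.12. Tnmd (16.4), Postn (10.0) and Scx (8.81) followed, and their ranges overlapped as well, while the highest Tnmd value of 25.7 in muHuR-KO-1.9 lay below the lowest Fmod value of 27.4 in Control-3.8. Comp (3.31), Tnc (2.50) and Lox (1.81) overlapped with each other, and Mkx (0.645) was the lowest, at rank 10739. Per length, Scx was thus more abundant than Comp, Tnc and Lox on average, and more abundant than Mkx in every library.

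**Figure D2:**
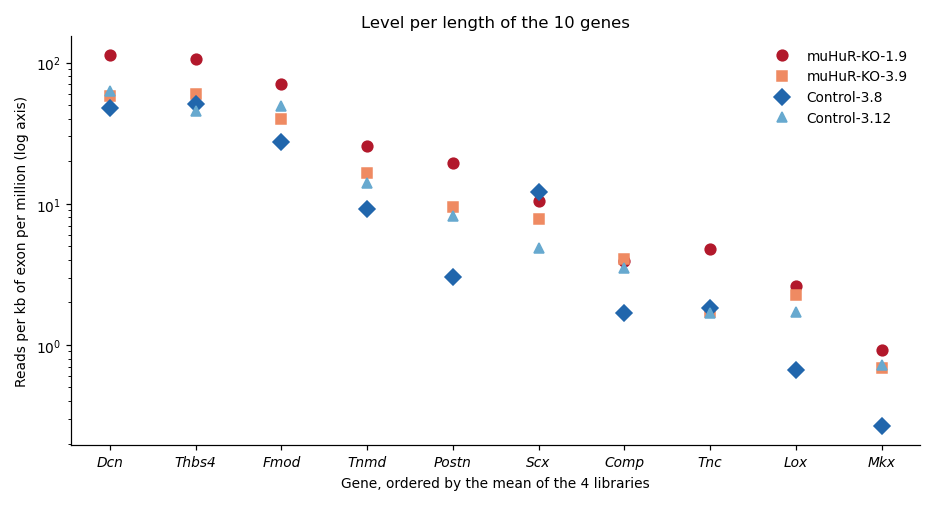
Level per length in RPKM (log axis) of the 10 genes, ordered by their mean, with 1 point for each library. The genes fall into a leading group of Dcn, Thbs4 and Fmod, which ends above the highest Tnmd value of 25.7, and Mkx is lowest at a mean of 0.645.

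The study compared the soleus of muHuR-KO mice with that of control littermates to ask what the loss of HuR changes in muscle. Against both controls, the 10 genes had log2 fold changes above 0 by limma, with a median of 0.62 where the median of all tested genes was -0.01. The direction turned for Scx by DESeq2 (-0.00412), without muHuR-KO-1.9 (-0.0405) and without Control-3.12 (-0.55), for Tnc without muHuR-KO-1.9 (-0.11) and for Dcn after a correction for GC content (-0.0194). Postn (log2 fold change 1.34, standard error 0.50) and Lox (1.07, standard error 0.44) had the largest, and Scx the smallest, at 0.13. None of the 10 genes passed an adjusted p under 0.05 from limma (adjusted p = 0.9999 for each), as none of the 13287 tested genes did (0% called). At an unadjusted p under 0.05 there were 102 genes by limma, among them Postn and Lox, and 131 genes by edgeR and 74 by DESeq2 on the recovered reads, with no gene past the adjusted threshold by either tool. An exact permutation test of 2 against 2 libraries cannot give a two-sided p below 0.333, which is the value for the 5 genes whose groups did not overlap. The p-values measure the spread between these mice only, and with Control-3.12 left out 5 of the 10 genes and 1266 of all tested genes passed.

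Against Control-3.8 alone, 5 of the 10 genes rose in muHuR-KO soleus, where 9.69% of all tested genes were called higher and 0.128% lower. The 10 genes had a median log2 fold change of 0.93, against -0.04 over all tested genes. Postn rose by 2.05 on the log2 scale (standard error 0.34, adjusted p = 0.00886 from limma) and Lox by 1.73 (standard error 0.28, adjusted p = 0.00852), which are the matricellular protein and the crosslinking enzyme. Mkx rose by 1.42 (standard error 0.37, adjusted p = 0.0436 from limma), Comp by 1.12 (0.27, 0.0286) and Tnmd by 1.05 (0.28, 0.0467). The other 5 genes were not called by limma: Fmod at 0.82 (adjusted p = 0.139), Dcn at 0.64 (0.298), Thbs4 at 0.54 (0.320), Tnc at 0.51 (0.523) and Scx at -0.55 (0.252). The residual spread in this fit came from the muHuR-KO pair, with 1 degree of freedom, and was moderated by limma toward the trend over all tested genes with a prior of 8.34 degrees of freedom. The single control was assumed to vary in the same way. No gene of the 10 was called when the mean-variance trend or the filter on low counts was dropped, and DESeq2 on recovered reads called Lox alone, where it called 963 of 13287 tested genes higher and 11 lower. The call of Mkx was also lost by edgeR (adjusted p = 0.0520) and after a correction for transcript length (adjusted p = 0.0645 from limma), which called the other 4 genes.

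Against Control-3.12 alone, none of the 10 genes passed, as none of the 13287 tested genes did by limma (0% called), with 630 at an unadjusted p under 0.05, among them Scx and Thbs4. The log2 fold changes of the 10 genes had a median of 0.44, against -0.03 over all tested genes. Scx (0.82, standard error 0.26, adjusted p = 0.868 from limma), Thbs4 (0.73), Tnc (0.67) and Postn (0.63) had the largest values. Fmod (0.01), Mkx (0.06) and Comp (0.10) lay near 0, so that the values of Mkx and Comp against Control-3.8 had no counterpart against the other control. edgeR called 1 gene and DESeq2 9 genes in this comparison, none of them among the 10. All of these comparisons share the muHuR-KO libraries, and the first shares each control with one of the others.

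**Figure D3:**
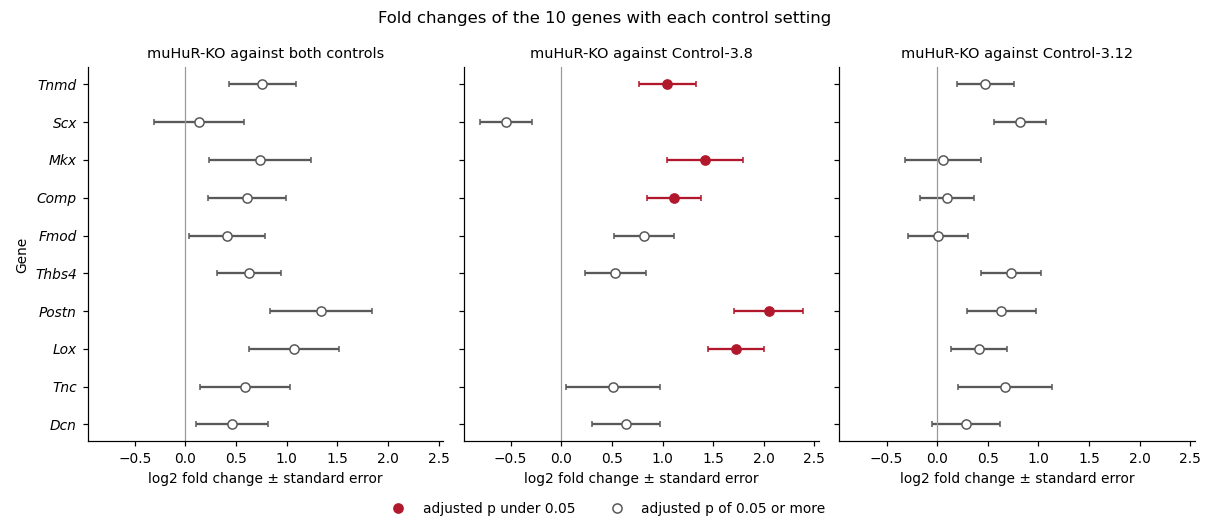
Log2 fold changes with standard errors (limma) of the 10 genes in muHuR-KO libraries against both controls, against Control-3.8 and against Control-3.12. Filled points passed an adjusted p under 0.05 and occur only against Control-3.8, for Tnmd, Mkx, Comp, Postn and Lox, and Scx changes sign between the controls, at -0.55 and 0.82.

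Set against the mean of the other 3 libraries, Control-3.8 was lower in Postn, Lox, Mkx and Comp, 4 of the 10 genes, where 12.4% of all tested genes were called lower in that library. The difference was -1.84 for Postn, -1.59 for Lox (adjusted p = 0.00455 from limma), -1.40 for Mkx (adjusted p = 0.0216) and -1.08 for Comp (adjusted p = 0.0124) on the log2 scale. After a correction for GC content, Postn was at -0.54 (adjusted p = 0.478 from limma) and Mkx at -0.85 (0.175), which ended both calls, while Lox and Comp were still called. For muHuR-KO-1.9, muHuR-KO-3.9 and Control-3.12, 0% of tested genes passed by limma and none of the 10 genes did. At an unadjusted p under 0.05 there were 178, 49 and 310 genes in these libraries by limma, and DESeq2 called 1 gene in muHuR-KO-1.9 and 2 genes in Control-3.12, outside the 10, where edgeR called none. The values of muHuR-KO-1.9 were above 0 in all 10 genes, with a median of 0.85, and were largest for Postn, at 1.53 (standard error 0.63), and Tnc, at 1.32 (standard error 0.27, adjusted p = 0.9986 from limma for each). The medians over the 10 genes were 0.03 in muHuR-KO-3.9 and -0.01 in Control-3.12. In each fit the spread came from the other 3 libraries, which mix both genotypes, and the spread of the single library was not measured. Each fit contains Control-3.8 either as the library tested or among the other 3.

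Base composition touched the genes unequally, since Postn (36.3% GC) and Dcn (37.4%) belong to the 1320 tested genes of lowest GC content and Comp (59.9%) and Scx (61.3%) to the 1320 of highest. Each library was therefore also corrected by a loess curve of its deviations on the GC content of the longest transcript. Against Control-3.8, the log2 fold change of Postn then was 0.81 (adjusted p = 0.147 from limma), of Mkx 0.90 (0.229) and of Tnmd 0.50 (0.357), which ended these 3 calls, and that of Dcn was -0.50 (0.432), with its direction turned. Comp (1.41, adjusted p = 0.0132) and Lox (1.28, 0.0228) were still called, and Fmod (1.02, 0.0476) was called in addition. Over all tested genes, 268 were called higher and 179 lower after the correction, against 1287 higher and 17 lower before it. After it, both muHuR-KO libraries lay above both controls in Tnmd, Thbs4, Postn and Lox, 4 of the 10 genes, against 11.1% of 13199 tested genes, and Comp overlapped. Lox was the only one of the 10 that was both called against Control-3.8 and without overlap between the groups with and without this correction. How much of the difference of Control-3.8 in the genes of low GC content came from base composition was not tested.

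**Figure D4:**
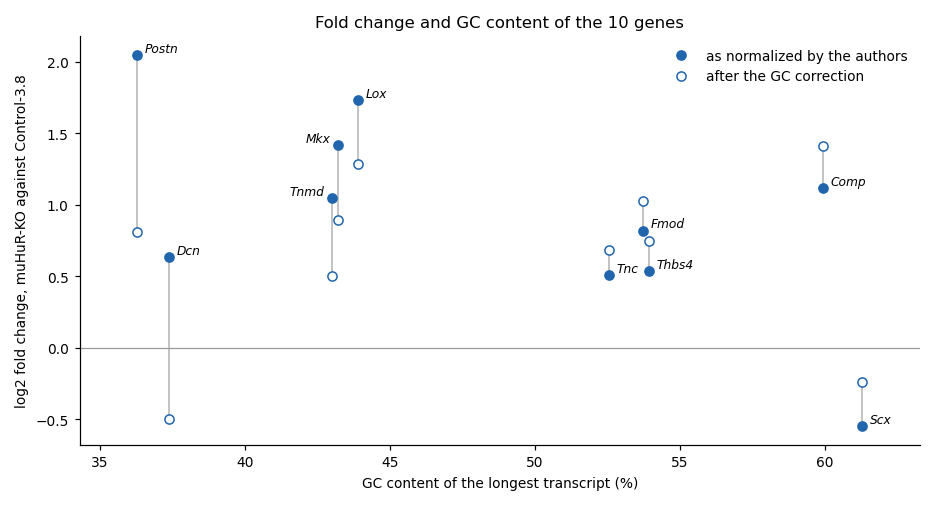
Log2 fold change of the 10 genes in muHuR-KO libraries against Control-3.8 by the GC content of the longest transcript in percent, before (filled) and after (open) the loess correction. The genes under 45% GC move down, Postn the most, to 0.81, and the genes over 50% GC move up, Comp to 1.41.

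Overlapping annotation could touch the counts of 4 of the 10 genes. Beside Scx within Bop1, Mkx shares 201 of its 4095 exonic bases with AC148004.2 on its own strand, Tnc 176 of 7772 with 8030451A03Rik and Lox 30 of 4778 with AC161119.1, both on the opposite strand. AC148004.2, 8030451A03Rik and AC161119.1 have no values under these symbols among the 23420 deposited genes, whereas Bop1 does. Neither the annotation nor the strand setting of the counting is given in the sources used here, so reads from these stretches cannot be told apart.

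HuR is known for binding AU-rich and U-rich stretches in the 3′ untranslated regions of mRNAs, of which the pentamer ATTTA is the classic short element. The 3′ untranslated region of the longest coding transcript held ATTTA, on the transcript strand, in 3 of the 10 genes, namely Lox (10 times in 3160 bases), Mkx (3 times in 2347 bases) and Postn (1 time in 738 bases). The other 7 genes held none, and their regions ran from 134 bases in Comp to 1652 in Fmod. Among 12749 tested genes with such a region, 70.16% held at least 1 ATTTA. The median length was 568 bases in the 10 genes and 1192 bases over tested genes, so the 10 genes had shorter regions as well as fewer elements. The genes that hold it include Postn and Lox, with the largest uncorrected fold changes against both controls, and the 5 genes without overlap between the groups include Tnmd, Comp and Thbs4, which hold none.

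The site of Postn is shown because Postn had the largest fold change of the 10 genes by limma against both controls (1.34) and against Control-3.8 (2.05). Against Control-3.12 Scx, Thbs4 and Tnc exceeded it, and after the GC correction Lox did against both controls, at 0.89 where Postn was at 0.81. It begins at base 521 of the untranslated region (chromosome 3), and capitals mark ATTTA.
Postn: tttttacacttgATTTAtatcctcgagat

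RefSeq promoter windows of GRCm38.p6, from 250 bases before to 50 bases after a transcription start, were at hand for 5 of the 10 genes (Tnmd, Fmod, Thbs4, Postn and Tnc), with a pair of starts each for Postn and Tnc. Windows were searched for the E-box CANNTG, the element of basic helix-loop-helix factors such as scleraxis and MyoD, which reads the same on either strand, and for TATAAA on the strand of the gene. These motifs cannot overlap each other. Of 12645 windows of tested genes, 64.4% held CANNTG and 4.43% held TATAAA. The windows of Tnmd, Thbs4 and Postn are shown because their muHuR-KO libraries lay above both controls, with motifs in capitals, and each is written in the direction of the gene. In Thbs4 there were 2 E-boxes, CAAATG 115 bases before the start and CACCTG after it, and in Postn the window nearer the annotated gene start held TATAAA 26 bases before the start and no E-box. The window of Tnmd held neither.
Tnmd, chrX:133850758-133851057, plus strand: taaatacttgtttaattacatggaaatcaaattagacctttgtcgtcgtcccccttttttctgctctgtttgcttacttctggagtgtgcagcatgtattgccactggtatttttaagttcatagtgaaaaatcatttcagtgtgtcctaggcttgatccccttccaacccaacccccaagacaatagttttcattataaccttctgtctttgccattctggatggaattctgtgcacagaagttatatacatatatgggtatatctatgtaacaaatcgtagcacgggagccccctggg
Thbs4, chr13:92794769-92795068, minus strand: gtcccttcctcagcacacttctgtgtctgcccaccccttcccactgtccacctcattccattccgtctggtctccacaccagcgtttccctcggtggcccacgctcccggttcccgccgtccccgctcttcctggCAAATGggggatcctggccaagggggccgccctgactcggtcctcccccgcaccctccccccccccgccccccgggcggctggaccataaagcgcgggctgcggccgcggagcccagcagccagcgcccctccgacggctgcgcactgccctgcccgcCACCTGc
Postn, chr3:54360857-54361156, plus strand: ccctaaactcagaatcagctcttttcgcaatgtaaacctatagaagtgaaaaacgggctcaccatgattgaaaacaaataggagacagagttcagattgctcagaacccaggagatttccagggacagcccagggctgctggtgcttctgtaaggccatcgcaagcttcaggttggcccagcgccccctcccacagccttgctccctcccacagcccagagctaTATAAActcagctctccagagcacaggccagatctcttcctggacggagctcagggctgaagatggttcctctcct

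Of the windows not printed, that of Fmod held 1 E-box, CATCTG, 189 bases before the start. The more upstream window of Tnc held 3 E-boxes, at 217, 113 and 21 bases before the start, and TATAAA at 126 bases before it. The other Postn window held neither motif. A match of letters describes the window only, and Tnmd, Thbs4 and Postn had neither motif in common.

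Other genes of tendon matrix followed the same order of libraries in part. Among the small leucine-rich proteoglycans outside the 10 genes, 3 of 10 tested genes were called higher in muHuR-KO soleus against Control-3.8 (9.69% of all tested genes), none lower, and none was called against both controls or against Control-3.12. They were Ogn (osteoglycin) at 1.69 on the log2 scale, Aspn (asporin), which binds collagen, at 1.12, and Ecm2 at 1.12 (adjusted p = 0.00852, 0.0108 and 0.0470 from limma). Ogn had 1608 and 1213 normalized counts in muHuR-KO libraries, against 434 in Control-3.8 and 1449 in Control-3.12, so that only Control-3.8 was set apart. The 10 proteoglycans had a median log2 fold change of 0.49 against both controls, and in none of them did both muHuR-KO libraries lie above both controls. Lum is counted here and among the fibroblast markers.

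Of 13 tendon collagens, 3 were called higher against Control-3.8, where 9.69% of all tested genes were: Col11a1, a chain that starts thin fibrils (2.02, adjusted p = 0.00852 from limma), Col12a1, which decorates fibril surfaces (1.10, 0.0358), and Col11a2 (0.99, 0.0433). Their groups did not overlap. Col11a1 had 783 and 535 normalized counts in muHuR-KO libraries, against 159 in Control-3.8 and 425 in Control-3.12. Both muHuR-KO libraries lay above both controls in 8 of the 13 collagens (9.57% of all tested genes), and the median log2 fold change against both controls was 0.22. Among the 8 were Col1a2 and Col3a1 of the main tendon and muscle fibrils, where muHuR-KO-3.9 exceeded Control-3.12 by only 1.10-fold and 1.01-fold. Col1a1 overlapped, with 19534 and 9455 normalized counts in muHuR-KO libraries, against 8638 in Control-3.8 and 9609 in Control-3.12. The collagens thus had the same side as the 10 genes with smaller values, and muHuR-KO-1.9 was the highest library in 12 of 13 (21.2% of all tested genes).

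In each of the remaining lists no more than 1 gene was called, where 9.69% of all tested genes were called higher against Control-3.8. None of 14 genes of collagen crosslinking and processing other than Lox, of 8 genes of tendon sheath and lubrication, or of 4 other thrombospondins and tenascins was called in any comparison with a control, and their median log2 fold changes against both controls were 0.11, 0.16 and 0.11. Of 12 genes of the myotendinous junction, which had a median of 0.17 against both controls and 0.32 against Control-3.8, 1 was called against Control-3.8, Dmd (dystrophin), at 1.36 (adjusted p = 0.0136 from limma). Dmd had 5080 and 7698 normalized counts in muHuR-KO libraries, against 2437 in Control-3.8 and 8778 in Control-3.12, and thus was highest in a control. Col22a1, the collagen particular to the myotendinous junction and named here after its values were seen, had 1697 and 1550 normalized counts in muHuR-KO libraries, against 1019 and 1179 in controls, with no overlap. Both muHuR-KO libraries lay above both controls in 5 of the 12 junction genes and 5 of the 14 crosslinking genes, against 9.57% of all tested genes. They lay so in 1 of the 8 sheath genes and in 0 of the 4 thrombospondins and tenascins. Both lay below both controls in 1 junction gene and 1 crosslinking gene, against 13.0%. Of the 18 signaling genes given next, 4 lay above and 2 below in this way. Of 18 genes of TGF-beta, BMP and EGR signaling, with medians of 0.23 and 0.17 in the same comparisons, 1 was called against Control-3.8, the receptor Tgfbr1, at 1.05 (adjusted p = 0.0190 from limma), with 682 and 665 normalized counts in muHuR-KO libraries, against 324 in Control-3.8 and 717 in Control-3.12.

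Markers of other cell types moved with single libraries too. Of 14 fibroblast and fibro-adipogenic progenitor markers, 13 were highest in muHuR-KO-1.9 (21.2% of all tested genes), with a summed level of 37850 and 27459 normalized counts in muHuR-KO libraries, against 32599 in Control-3.8 and 28994 in Control-3.12, and Gsn and Fbn1 as the most abundant. All 8 macrophage markers were highest in muHuR-KO-1.9 (sums 2382 and 1339.6 in muHuR-KO libraries, against 1354 and 1503 in controls, led by Lyz2 and Mrc1), and so were 6 of 7 endothelial markers (sums 28894 and 20838, against 24455 and 24881, led by Fabp4 and Cdh5). muHuR-KO-1.9 had the highest sum of the 10 genes and of the fibroblast, macrophage and endothelial lists. Control-3.8 had the second highest fibroblast sum of the 4 libraries, of which Gsn alone gave 15164 normalized counts, and the lowest sum of the 10 genes.

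All 6 adipocyte and all 5 satellite cell markers were lowest in Control-3.8 (34.9% of all tested genes), and the 7 slow fiber markers were at a median deviation of 0.56 on the log2 scale in that library, against -0.25 and -0.07 in muHuR-KO libraries and -0.28 in Control-3.12. The 8 fast fiber markers were not low there, at a median deviation of 0.13 in Control-3.8, against 0.08 and -0.21 in muHuR-KO libraries and 0.03 in Control-3.12. Most markers of the bone and cartilage lists were at or near 0: Bglap, Ibsp and Sp7 had no more than 4.45 normalized counts and Acan no more than 9.20 in any library, and Bglap2 and Matn1 had none. Of 7 bone markers 1 reached a mean of 10, Alpl, and of 10 cartilage markers 2 did, Sox9 and Col2a1. Alpl had 1093 and 804 normalized counts in muHuR-KO libraries, against 1124 in Control-3.8 and 923 in Control-3.12. Col2a1, a cartilage collagen, had 89.7 and 82.2 normalized counts in muHuR-KO libraries, against 28.3 and 55.2 in controls. Sox9, a transcription factor of cartilage, lay the other way, with 306 and 257 normalized counts in muHuR-KO libraries, against 457 and 344 in controls. The part of these cell types in the values of the tendon genes was not tested.

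**Figure D5:**
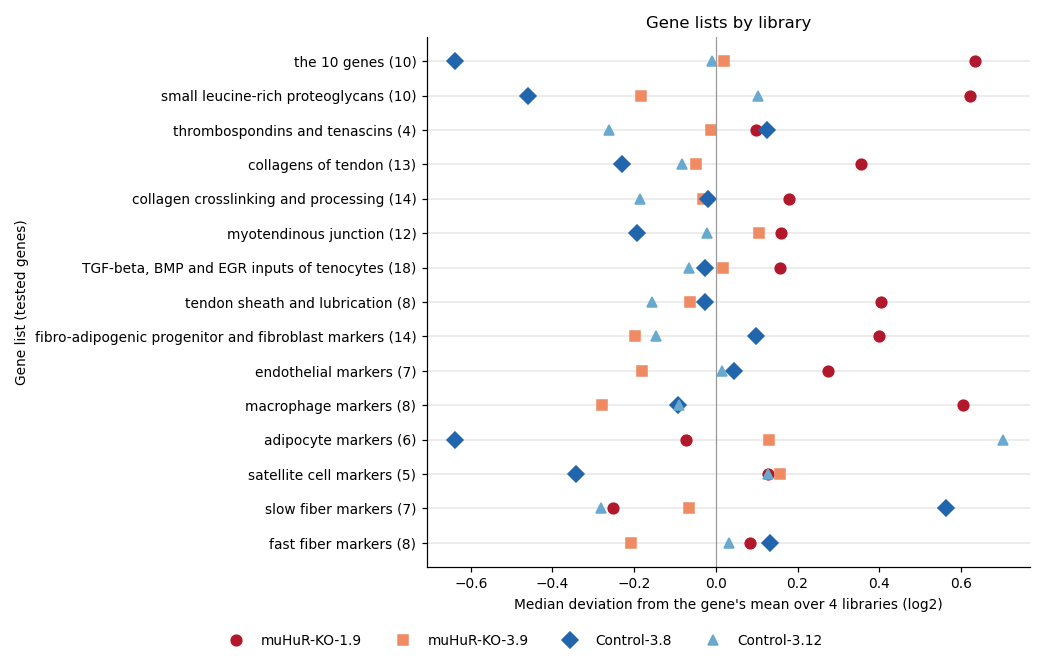
Median deviation of the genes of each list from their own mean over the 4 libraries (log2), with 1 point for each library and the number of tested genes in brackets. The 10 genes lie at 0.64 in muHuR-KO-1.9, 0.02 in muHuR-KO-3.9, -0.64 in Control-3.8 and -0.01 in Control-3.12, and the small leucine-rich proteoglycans lie at 0.62, -0.18, -0.46 and 0.10 in the same libraries.

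The median profile of the 10 genes, after centering each gene on its mean of log2 values and then the profile itself on its mean, was 0.63 in muHuR-KO-1.9 and 0.02 in muHuR-KO-3.9, against -0.64 in Control-3.8 and -0.01 in Control-3.12. Tnmd lay closest to it (Euclidean distance 0.12 over the 4 libraries), followed by Fmod (0.29) and Dcn (0.34), and Scx lay farthest (1.51). Outside the 10 genes, the nearest profiles among the 11182 genes that averaged 50 normalized counts or more belonged to Lama3 (distance 0.05), Zfp185 (0.05), Ptprj (0.08), Mir143hg (0.10) and Gbp5 (0.11). As an example, Lama3, a laminin chain, had 145 and 94.3 normalized counts in muHuR-KO libraries, against 61.5 in Control-3.8 and 95.7 in Control-3.12. The profile was not rare, since 975 of these genes lay within 0.588 of it, the median distance of the 10 genes themselves.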

How the data were processed

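RNA-seq libraries of soleus from 2 muHuR-KO mice and 2 control littermates (NextSeq paired-end reads) were grouped by their labels. The authors' alignment used TopHat2 2.0.10, their gene counts came from HTSeq 0.6.1 and their normalization from DESeq2, whose version is not given in the sources used here, nor are the annotation and the strand setting. The deposited signal columns hold these normalized counts, which keep each library's depth as a step between values, and reads were recovered from that step. The deposited mean, shrunken and unshrunken log2 fold changes, standard errors, Wald statistics and p-values of the authors' own comparison were not used. The deposited name of that comparison speaks of a single control, and the sources used here do not say why.

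limma 3.58.1 (R 4.3.3, eBayes with a trend) was fitted to log2(normalized count + 1) across the 13287 genes averaging 10 or more with Benjamini-Hochberg adjustment and a threshold of 0.05, so that fold changes of low genes are understated. Comparisons were muHuR-KO against both controls, against each control singly in a fit where the other control formed a separate group, and every library in turn against the remaining 3. Alternatives were pseudocounts of 0.5 and 5, edgeR 4.0.16 and DESeq2 1.42.0 on recovered reads, TMM factors, no trend, no filter or a filter at 50, loess corrections (span 0.4) for GC content and length, and leaving out each library. The limma fits against both controls and against Control-3.8 were tested on simulated reads. These had a spread common to all genes and no deviation of Control-3.8 with GC content, so they do not test the fits under that deviation. Coordinates, lengths and untranslated regions came from GENCODE on GRCm38, matched by symbol or else by RefSeq synonym for 13199 of 13287 genes, and promoters from RefSeq, for which 1 table with 5 of the 10 genes was used. Figures were made with Python 3.11.15 and matplotlib 3.10.9.

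Named genes were the 10 genes, Elavl1, up to 3 called genes of smallest p in each list of neighbouring genes and comparison, the 5 nearest profiles and the 2 most abundant markers of a cell type. A list of cell type markers is not reported here. The genes, lists and tests were chosen with earlier results of these data known.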

Additional observations from a re-analysis of the deposited data

How the results depend on the processing

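The results rest mainly on which control is used. No paired analysis was run, because the labels used here name no pairs. Leaving out 1 library at a time, the comparison with both controls called 0 to 1266 genes and 0 to 5 of the 10, the comparison with Control-3.12 called 2 genes, and both muHuR-KO libraries lay above both controls in 5 to 9 of the 10 genes and in 2561 to 5071 of all tested genes. Against Control-3.8, 1304 genes and 5 of the 10 were called, but 0 and 0 without the filter or without the trend, 447 and 3 after the GC correction, 604 and 4 after the length correction, 1387 and 4 by edgeR, and 1 of the 10 by DESeq2. Against Control-3.12, edgeR called 1 gene, DESeq2 9 and the fit after the GC correction 20. For Control-3.8 against the other 3, 1696 genes and 4 of the 10 became 0 and 0 without the filter and 658 and 2 after the GC correction. DESeq2 called 1 gene for muHuR-KO-1.9 and 2 for Control-3.12 against the other 3. Log2 differences that turned sign were all uncalled. Against both controls they were Scx (-0.00412 by DESeq2, -0.55 to 0.82 without 1 library), Tnc (-0.11 to 1.29 without 1 library) and Dcn (-0.0194 after the GC correction). Against Control-3.8 they were Tnc (-0.18 to 1.21 without 1 library) and Dcn (-0.50 after the GC correction). Against Control-3.12 they were Fmod (-0.0149 after the GC and -0.0236 after the length correction, -0.37 to 0.38 without 1 library), Mkx (-0.12 to 0.23), Tnc (-0.0261 to 1.37) and Dcn (-0.16 to 0.74). Against the other 3 libraries, Postn in muHuR-KO-3.9 was at -0.0743 by edgeR, -0.0813 by DESeq2 and -0.0933 after the GC correction, Dcn in Control-3.8 was at 0.65 after the GC correction, and in Control-3.12 Tnmd was at 0.0536 after the length correction, Postn at -0.325 by edgeR, -0.281 by DESeq2, -0.55 after the GC and -0.14 after the length correction, and Lox at -0.0774 by edgeR, -0.0340 by DESeq2 and -0.0696 after the GC correction. The GC correction's own construction moves genes of low GC content in Control-3.8, and otherwise the cause was not tested. Mkx, with 28 reads in Control-3.8, rests on the fewest reads of the 10.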
